A study of Saccharomyces cerevisiae with 9 samples.

Results

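The 10 budding yeast genes described here encode the helicases, topoisomerase and endonucleases that take apart branched DNA joints: SGS1, TOP3, RMI1, MUS81, MMS4, YEN1, SLX1, SLX4, MPH1 and SRS2. They were chosen by name as rows of the deposited tables, and all 10 were found among 5205 genes. Expression was measured by RNA sequencing of poly(A)-selected RNA from Saccharomyces cerevisiae strain W303 after 15 days in stationary phase in YPD, a rich medium, without dilution. There were 3 groups of 3 libraries, labelled as biological replicates: white colonies of the cdc13-K504E mutant (K504E-white), red colonies of the same mutant (K504E-red) and red colonies of the wild type (WT-red). Cdc13 is the protein that binds the single-stranded end of yeast telomeres, and the study's title describes the mutant form as defective in binding junctions. White colonies of the wild type are not among the groups, so in K504E-white relative to WT-red the mutation and the colour cannot be told apart. RNA came from whole cultures, in which fewer cells making a transcript and less of it per cell cannot be told apart.

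During homologous recombination a broken or single-stranded DNA end invades a matching duplex and forms a displacement loop, which can mature into Holliday junctions. Sgs1, Top3 and Rmi1 form a complex that undoes paired Holliday junctions without crossing over, whereas Mus81-Mms4, Yen1 and Slx1-Slx4 are nucleases that cut branched DNA. Mph1 and Srs2 act earlier, by unwinding displacement loops and by dismantling early intermediates of recombination. In cells without telomerase the same recombination steps can maintain chromosome ends. Much of the control of these enzymes is known to act on the proteins through the cell cycle, including phosphorylation of Mms4 by the kinase Cdc5 and dephosphorylation of Yen1 by the phosphatase Cdc14.

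Total counts were 27388755 to 34634199 per library. ADE2, whose loss makes colonies red, averaged 271 ± 9.28 FPKM in K504E-white, 74.0 ± 5.07 FPKM in K504E-red and 53.2 ± 5.67 FPKM in WT-red (SD, n = 3 each). CDC13 averaged 7.62 ± 0.178, 9.88 ± 1.87 and 9.04 ± 0.704 FPKM in the same order, and a level does not check an amino acid substitution. By edgeR CDC13 was lower in K504E-white relative to K504E-red, at -0.38 on the log2 scale (SE 0.125, adjusted p 0.0159), a call lost with limma on log2 FPKM and without K504E-red replicate 2 or 3, and was not called in the other comparisons. The mating type a receptor gene STE2 averaged 686 CPM (counts scaled to library size) in K504E-white, 547 CPM in K504E-red and 617 CPM in WT-red, against 1.09, 3.11 and 2.16 CPM for STE3, its mating type alpha counterpart. Of 12 meiotic genes listed, HOP1, a chromosome axis gene, averaged 16.9, 24.7 and 18.2 CPM in that order and was highest in K504E-red. IME1 (12.8, 11.8 and 10.3 CPM) and SPO11 (5.05, 4.28 and 3.82 CPM) were highest in K504E-white and were not called in any comparison. The calls of the whole list are given below.

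All 10 genes were expressed at low levels. On the FPKM scale, which divides by gene length and so permits comparison between genes, their means over the 9 libraries ran from 6.84 for TOP3 to 34.6 for SLX1, against a median of 55.3 over all genes. SLX1, a short gene for the catalytic subunit of Slx1-Slx4, stood above 33.6% of all genes in mean FPKM, and TOP3 above 4.67%. The order of mean FPKM was SLX1 (34.6), MPH1 (28.1), RMI1 (27.5), YEN1 (22.0), SRS2 (16.8), SLX4 (16.6), MUS81 (14.5), MMS4 (13.4), SGS1 (8.29) and TOP3 (6.84). Neighbours in that order overlapped in the range of their libraries, except that the libraries of MMS4 lay entirely above those of SGS1. Single libraries held between 307 counts (TOP3) and 3070 counts (MPH1) of a gene, and the counts of TOP3 carry the largest counting error.

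**Figure D1:**
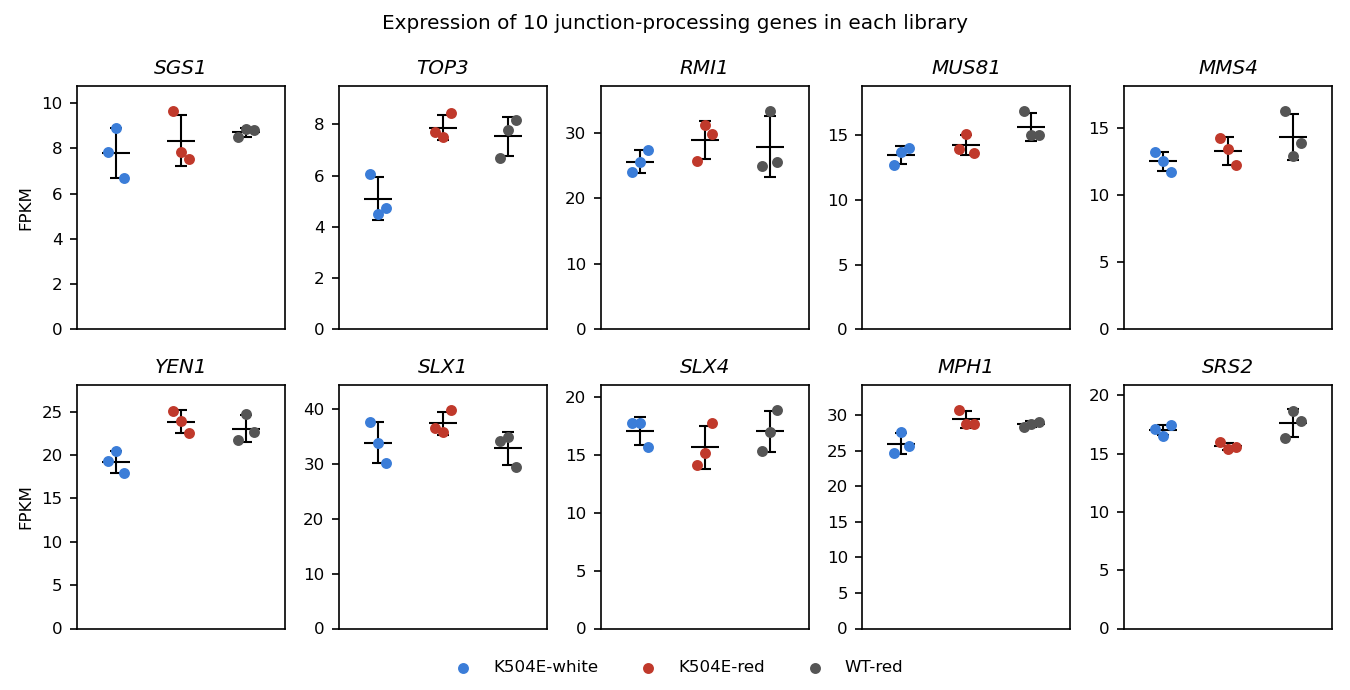
FPKM of the 10 genes in each library, 1 panel per gene with its own axis starting at 0. Points are libraries (K504E-white blue, K504E-red red, WT-red grey) and bars are the group mean ± SD (n = 3). TOP3, YEN1 and MPH1 are the panels in which all 3 K504E-white libraries lie below all 6 others.

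Differences were tested for all 5172 genes that passed a filter on low counts, which included all 10, with edgeR's quasi-likelihood test and Benjamini-Hochberg adjustment over all of them. A gene is called changed at an adjusted p under 0.05. K504E-red relative to WT-red asks what the mutation is accompanied by in colonies of the same colour, K504E-white relative to K504E-red what accompanies the change of colour within the mutant, and K504E-white relative to WT-red holds both. The comparisons share libraries and are not independent of each other.

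In K504E-red relative to WT-red, none of the 10 genes was called by edgeR, while 47.5% of all genes tested were (25.8% higher and 21.7% lower). Their log2 fold changes ran from -0.16 (SRS2) to 0.20 (SLX1), 5 above 0 and 5 below, with a median of -0.00211 against 0.0335 over all genes. The median size was 0.086 on the log2 scale, against 0.184 over all genes. The 95% confidence intervals of the 10 lay between -0.33 and 0.41 on the log2 scale, that is between 0.797 and 1.33 times the WT-red level, and the narrowest of them, that of MPH1, lay between -0.09 and 0.18. The standard errors were 0.0628 to 0.142, with a median of 0.103 against 0.0733 over all genes. At an unadjusted p under 0.05, edgeR gave 1 gene, SRS2, and DESeq2 called that gene after adjustment. The libraries of both groups were fully separate for 2 of the 10 genes, SRS2 and SLX1, as they were for 54.6% of all genes.

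In K504E-white relative to WT-red, 2 of the 10 genes were lower and none was higher, against 23.5% of all genes lower and 23.3% higher. TOP3 and YEN1 were the 2. The median log2 fold change of the 10 was -0.15, against -0.00716 over all genes, and 8 of the 10 lay below 0. The libraries were fully separate for 4 of the 10 (TOP3, YEN1, MPH1 and MUS81) and for 56.1% of all genes. The 8 genes that were not called had log2 fold changes from -0.21 to 0.05, with intervals between -0.42 and 0.26 (0.747 to 1.20 times the WT-red level). In K504E-white relative to K504E-red, 3 of the 10 were lower (TOP3, YEN1 and MPH1) and none was higher, against 27.3% of all genes lower and 27.2% higher. The median was -0.13, against -0.00426 over all genes, and 8 of the 10 again lay below 0. Full separation was seen for 4 of the 10 (TOP3, YEN1, MPH1 and SRS2) and for 61.9% of all genes. The 7 genes that were not called had intervals between -0.45 and 0.33 (0.730 to 1.26 times the K504E-red level). In either direction together, 46.8% of all genes were called in K504E-white relative to WT-red and 54.5% in K504E-white relative to K504E-red.

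**Figure D2:**
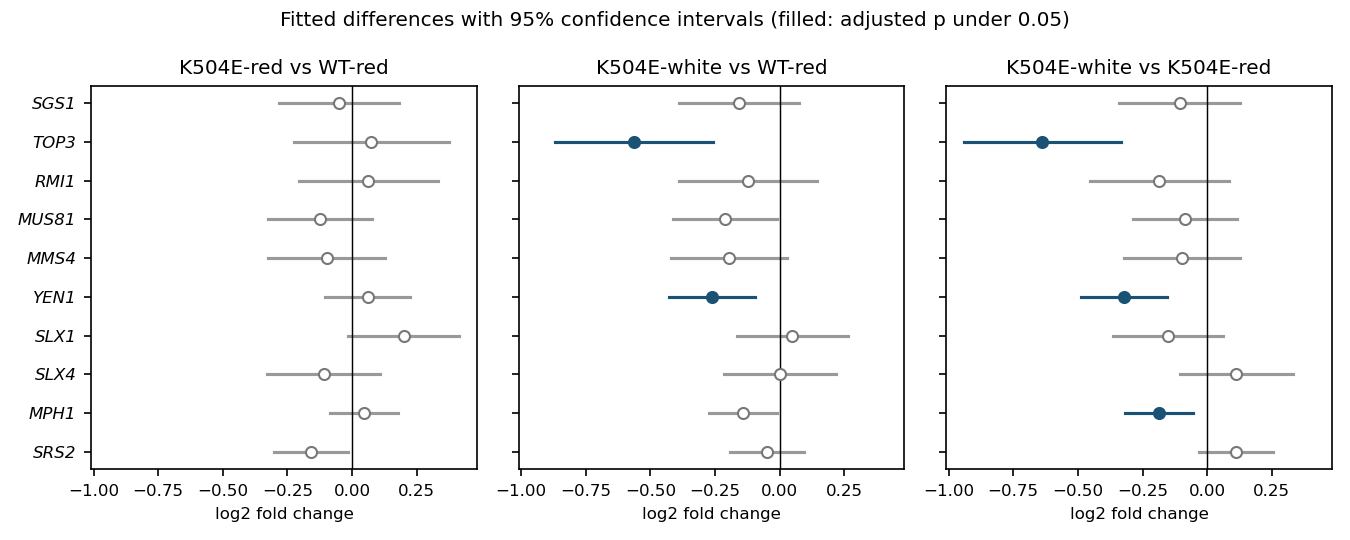
Fitted log2 fold changes of the 10 genes in the 3 comparisons, the first-named group over the second. Points are estimates, lines are 95% confidence intervals, and filled points passed an adjusted p of 0.05 by edgeR. The left panel holds no filled point, and the filled points of the other panels are TOP3, YEN1 and, between the colours of the mutant, MPH1.

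TOP3 (YLR234W, W303 contig 158, 2040 to 4010, minus strand) encodes the topoisomerase that passes single strands within the Sgs1 complex. It had 6.07, 4.51 and 4.72 FPKM in the K504E-white libraries, 7.71, 7.50 and 8.43 FPKM in the K504E-red libraries, and 6.69, 7.77 and 8.17 FPKM in the WT-red libraries. All 3 K504E-white libraries lay below all 6 red ones, and the red groups overlapped. TOP3 changed by -0.56 on the log2 scale (SE 0.144) in K504E-white relative to WT-red, or 0.677 times the WT-red level, with an adjusted p of 0.00381 by edgeR. It had -0.64 in K504E-white relative to K504E-red (SE 0.145, adjusted p 0.00119 by edgeR), or 0.643 times the K504E-red level. In K504E-red relative to WT-red it was 0.07 (SE 0.142, adjusted p 0.701 by edgeR), with an interval from -0.23 to 0.37.

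The other members of that complex were not called in any comparison. SGS1 (YMR190C, contig 192, 6748 to 11091, minus strand) encodes the RecQ-family helicase and is the longest of the 10, with 4344 bp of coding sequence. It had 7.84, 8.89 and 6.70 FPKM in K504E-white, 9.64, 7.86 and 7.55 FPKM in K504E-red, and 8.49, 8.85 and 8.81 FPKM in WT-red. The mutant libraries spread more widely than the WT-red ones, with an SD of 1.09 FPKM in K504E-white and 1.13 FPKM in K504E-red against 0.197 FPKM in WT-red, and the groups overlapped. On the log2 scale SGS1 had -0.16 (SE 0.110, adjusted p 0.264 by edgeR) in K504E-white relative to WT-red, with an interval from -0.39 to 0.08. RMI1 (YPL024W, contig 123, 60572 to 61297, plus strand), the shortest at 726 bp, encodes the subunit that stimulates the decatenating activity of Sgs1 and Top3. RMI1 averaged 25.6 ± 1.72 FPKM in K504E-white, 28.9 ± 2.89 FPKM in K504E-red and 27.9 ± 4.66 FPKM in WT-red (SD, n = 3 each), and a single WT-red library at 33.2 FPKM was the highest of the 9.

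Because these proteins work as complexes, the ratio of partner transcripts was taken within each library on the FPKM scale, where library scaling cancels. TOP3 over SGS1 was 0.775, 0.508 and 0.704 in K504E-white, 0.800, 0.953 and 1.12 in K504E-red, and 0.789, 0.878 and 0.927 in WT-red. The highest K504E-white ratio lay just under the lowest red ones. The mean log2 ratio differed by -0.40 in K504E-white relative to WT-red and by -0.54 in K504E-white relative to K504E-red, with p = 0.10 in both by an exact two-sided permutation test, the smallest p that 3 libraries against 3 can give. RMI1 over SGS1 averaged 3.33 ± 0.656 in K504E-white, 3.53 ± 0.750 in K504E-red and 3.19 ± 0.487 in WT-red (SD, n = 3 each), and all groups overlapped. In all, 4 pairs were compared in 3 ways, and none of the 12 adjusted p-values from the exact permutation tests was under 0.3.

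**Figure D3:**
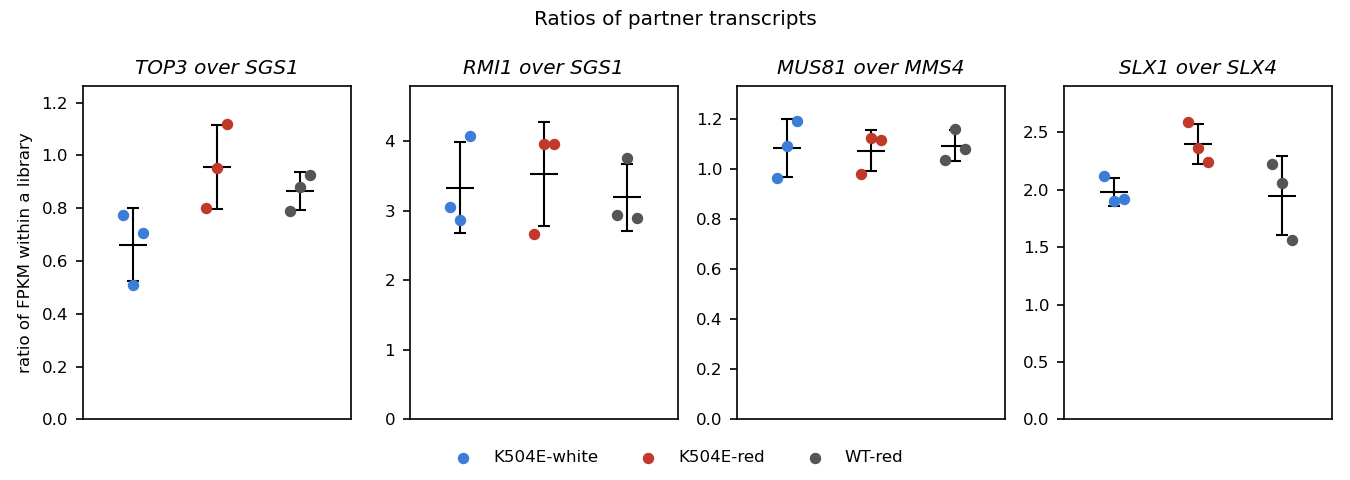
Ratios of the FPKM of partner genes within a library, with axes starting at 0. Points are libraries and bars are the group mean ± SD (n = 3). TOP3 over SGS1 is lowest in K504E-white, SLX1 over SLX4 is highest in K504E-red, and MUS81 over MMS4 lies near 1.1 in all 3 groups.

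YEN1 (YER041W, contig 46, 15310 to 17589, minus strand) encodes a Holliday junction resolvase of the XPG family that is restrained until late mitosis. It had 19.3, 20.4 and 17.9 FPKM in K504E-white, 25.1, 23.9 and 22.5 FPKM in K504E-red, and 21.7, 24.8 and 22.7 FPKM in WT-red. The K504E-white libraries were again the 3 lowest of the 9. The log2 fold change of YEN1 was -0.26 (SE 0.0787, adjusted p 0.0114 by edgeR) in K504E-white relative to WT-red, or 0.835 times the WT-red level. Without WT-red replicate 2 the adjusted p by edgeR was 0.0598 (log2 fold change -0.21). Relative to K504E-red it was -0.32 in K504E-white (SE 0.0788, adjusted p 0.00222 by edgeR), or 0.800 times the K504E-red level. YEN1 lies 196 bp from MXR1, a methionine sulfoxide reductase gene on the same strand and downstream of it, which averaged 53.0 CPM in K504E-white, 129 CPM in K504E-red and 160 CPM in WT-red. The log2 fold change of MXR1 was -1.59 in K504E-white relative to WT-red and -1.29 in K504E-white relative to K504E-red, and its part in the YEN1 counts was not tested.

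Mus81-Mms4 showed no call in the comparisons as reported. MUS81 (YDR386W, contig 64, 2855 to 4753, plus strand) encodes the catalytic subunit and had 12.7, 13.7 and 14.0 FPKM in K504E-white, 14.0, 15.1 and 13.6 FPKM in K504E-red, and 16.9, 15.0 and 15.0 FPKM in WT-red. The 3 K504E-white libraries lay below the 3 WT-red ones. The log2 fold change of MUS81 was -0.21 (SE 0.0957, adjusted p 0.0816 by edgeR) in K504E-white relative to WT-red, and it passed the threshold under 4 of 18 other settings, with an adjusted p by edgeR of 0.0434 when genes needed at least 10 counts in every library. MMS4 (YBR098W, contig 57, 35549 to 37624, minus strand), the regulatory subunit, averaged 12.5 ± 0.732 FPKM in K504E-white, 13.3 ± 1.02 FPKM in K504E-red and 14.4 ± 1.71 FPKM in WT-red (SD, n = 3 each). MUS81 over MMS4 averaged 1.08 ± 0.116 in K504E-white, 1.07 ± 0.0816 in K504E-red and 1.09 ± 0.0624 in WT-red, so the 2 transcripts stood at nearly equal FPKM in each group.

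SLX1 (YBR228W, contig 147, 15090 to 16004, plus strand) encodes the catalytic GIY-YIG subunit of Slx1-Slx4. It had 37.6, 33.7 and 30.1 FPKM in K504E-white, 36.5, 35.7 and 39.7 FPKM in K504E-red, and 34.1, 34.8 and 29.4 FPKM in WT-red. The K504E-red libraries lay above those of WT-red, and the log2 fold change was 0.20 (SE 0.102, adjusted p 0.118 by edgeR), with an interval from -0.01 to 0.41. SLX4 (YLR135W, contig 62, 35953 to 38199, minus strand), the scaffold subunit, had 17.7, 17.7 and 15.7 FPKM in K504E-white, 14.1, 15.1 and 17.7 FPKM in K504E-red, and 15.3, 16.9 and 18.8 FPKM in WT-red. Its groups overlapped in every comparison. SLX1 over SLX4 was 2.12, 1.90 and 1.92 in K504E-white, 2.59, 2.36 and 2.24 in K504E-red, and 2.23, 2.06 and 1.56 in WT-red. The K504E-red ratios lay above all 6 others, though the lowest of them (2.24) lay just above the highest WT-red ratio (2.23). The mean log2 ratio of K504E-red was higher than that of WT-red by 0.31. The difference of K504E-white from K504E-red was -0.27 on that scale, and the exact permutation test gave p = 0.10 for both differences, its smallest value.

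MPH1 (YIR002C, contig 52, 32371 to 35352, minus strand) encodes a helicase related to human FANCM. It had 24.8, 27.6 and 25.7 FPKM in K504E-white, 30.8, 28.7 and 28.7 FPKM in K504E-red, and 28.4, 28.8 and 29.1 FPKM in WT-red. The K504E-white libraries were the 3 lowest. The log2 fold change of MPH1 was -0.19 (SE 0.0628, adjusted p 0.0181 by edgeR) in K504E-white relative to K504E-red, or 0.878 times the K504E-red level. That call rested on single libraries: the adjusted p by edgeR was 0.0812 without K504E-red replicate 1, 0.0884 without K504E-white replicate 1 and 0.0546 without K504E-white replicate 3. In K504E-white relative to WT-red MPH1 had -0.14 (SE 0.0628, adjusted p 0.0743 by edgeR), which passed the threshold under 7 of 18 other settings.

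SRS2 (YJL092W, contig 12, 53097 to 56621, plus strand) encodes a helicase of the UvrD family. It had 17.1, 16.5 and 17.4 FPKM in K504E-white, 16.0, 15.4 and 15.6 FPKM in K504E-red, and 16.4, 18.7 and 17.8 FPKM in WT-red. K504E-red held the 3 lowest libraries. The log2 fold change of SRS2 was -0.16 (SE 0.0684, adjusted p 0.0650 by edgeR) in K504E-red relative to WT-red. It was called with DESeq2 size factors (adjusted p 0.0479 by edgeR) and in all passed the threshold under 9 of 18 other settings, with an adjusted p between 0.0115 and 0.219. SRS2 had 0.11 in K504E-white relative to K504E-red (SE 0.0683, adjusted p 0.181 by edgeR).

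The wider pathway was described through lists of related genes, by counts of edgeR calls beside the shares given above for all genes. Of 11 strand exchange genes, which act in the pairing of matching DNA, 3 were lower in K504E-red relative to WT-red (median log2 fold change -0.07). In K504E-white relative to WT-red 5 were lower and 1 higher (median -0.28), and in K504E-white relative to K504E-red 5 were lower and 2 higher (median -0.25). RAD59, a strand-annealing paralog of RAD52, averaged 14.6 CPM in K504E-white, 35.1 CPM in K504E-red and 40.4 CPM in WT-red. RAD59 had log2 fold changes of -1.47 (SE 0.137) in K504E-white relative to WT-red and -1.27 (SE 0.138) in K504E-white relative to K504E-red, both larger than that of any of the 10 junction-processing genes. RDH54, a DNA translocase gene, was the lowest of the list in K504E-red relative to WT-red at -0.51 (SE 0.0555). CSM2, a Shu complex gene, was the 1 higher in K504E-white relative to WT-red at 0.54 (SE 0.210, adjusted p 0.0446 by edgeR). Its call was made under 10 of 18 other settings and was lost, among others, without WT-red replicate 1 or 2, K504E-red replicate 3, or K504E-white replicate 1 or 3.

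Of 9 end resection and RPA genes, 2 were lower and 1 higher in K504E-red relative to WT-red, 5 lower and none higher in K504E-white relative to WT-red, and 5 lower and 1 higher in K504E-white relative to K504E-red. The 5 lower in K504E-white relative to WT-red were 3 without K504E-white replicate 2 and by limma, and the 2 lower in K504E-red relative to WT-red were 4 without any 1 K504E-white replicate. With both other filters these counts were 7 and 5. The first was also 7 without K504E-red replicate 2 or 3. XRS2, a subunit of the end-processing Mre11 complex, was higher in K504E-red relative to WT-red at 0.33 (SE 0.0844) and lower in K504E-white relative to K504E-red at -0.56 (SE 0.0847). EXO1, a resection nuclease, moved the other way, with -0.38 (SE 0.0762) and 0.20 (SE 0.0763) in the same comparisons. The second of these calls was lost when replicate 2 or 3 of either mutant group was left out. RFA2, an RPA subunit gene, had -0.40 (SE 0.0620) in K504E-white relative to WT-red.

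The Smc5/6 complex, which regulates junction intermediates, gave 1 higher and 2 lower of 8 genes in K504E-red relative to WT-red, 2 lower in K504E-white relative to WT-red, and 2 of each in K504E-white relative to K504E-red. SMC6 had -0.47 (SE 0.0819) in K504E-red relative to WT-red, and NSE3 was the gene that was higher there at 0.22 (SE 0.0781). NSE3 was called under 8 of 18 other settings, with its call lost when WT-red replicate 1 or 2, K504E-white replicate 1 or 3, or K504E-red replicate 2 or 3 was left out. The 2 lower became 1 without WT-red replicate 2 or 3 or K504E-red replicate 3. NSE5 had -0.40 (SE 0.0759) in K504E-white relative to WT-red. KRE29 and SMC5 had -0.64 (SE 0.116) and 0.35 (SE 0.124) in K504E-white relative to K504E-red, and SMC5 was not called there without K504E-red replicate 3 or K504E-white replicate 2.

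Of 9 listed partners and regulators, 6 were found in the table: RTT107 and DPB11, which bind Slx4, SAW1 and RAD1, which act in flap cleavage, and CDC5 and CDC14. CDC5 averaged 87.1 CPM in K504E-white, 62.8 CPM in K504E-red and 81.8 CPM in WT-red, and CDC14 averaged 75.4, 53.7 and 71.4 CPM in the same order. Both were lower in K504E-red relative to WT-red, with log2 fold changes of -0.38 (SE 0.0699) and -0.41 (SE 0.0830), and higher in K504E-white relative to K504E-red, with 0.47 (SE 0.0697) and 0.49 (SE 0.0829). RTT107 was lower in K504E-red relative to WT-red at -0.51 (SE 0.0767) and in K504E-white relative to WT-red at -0.30 (SE 0.0760). SAW1 was higher in the same comparisons, at 0.34 (SE 0.0887) and 0.25 (SE 0.0885). The second call was made under 10 of 18 other settings and was lost, among others, without WT-red replicate 1 or 2 or replicate 2 or 3 of either mutant group. RAD1 was lower in K504E-white relative to K504E-red at -0.32 (SE 0.0584). Of 5 other helicases and fork remodellers, RRM3 was lower in K504E-red relative to WT-red at -0.28 (SE 0.101) and higher in K504E-white relative to K504E-red at 0.48 (SE 0.101), and RAD5 was lower in K504E-white relative to WT-red at -0.34 (SE 0.0876). The count in K504E-red relative to WT-red, 1 of 5, was 0 without WT-red replicate 2 or K504E-red replicate 1, and 4 without K504E-white replicate 2 or 3.

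S-phase and G1/S genes were called in 1 direction in each comparison. Of 12 found, 11 were lower in K504E-red relative to WT-red (median log2 fold change -0.53) and 7 were lower in K504E-white relative to WT-red (median -0.27), while 9 were higher in K504E-white relative to K504E-red (median 0.35). The 5 that were not called in K504E-white relative to WT-red ran from -0.08 (POL2) to 0.25 (CLB6). With WT-red replicate 2 left out, 1 gene was called higher in that comparison. RNR1, the large subunit of ribonucleotide reductase, averaged 187 CPM in K504E-white, 129 CPM in K504E-red and 297 CPM in WT-red. RNR1 had -1.20 (SE 0.0592) in K504E-red relative to WT-red and -0.66 (SE 0.0583) in K504E-white relative to WT-red. CLB6, an S-phase cyclin, was the highest of the list in K504E-white relative to K504E-red at 0.75 (SE 0.189). The direction of each median was the same under every scaling, filter and left-out library tried, while the counts moved. The 11 lower were 9 without WT-red replicate 2, and CLB6 kept its call among them under 12 of 18 other settings. The 9 higher were 7 without K504E-white replicate 1 or 2, and 10 with DESeq2, its size factors or upper quartile scaling. Meiotic genes gave 3 higher of 12 in K504E-red relative to WT-red, with HOP1 at 0.44 (SE 0.118), and 4 lower in K504E-white relative to WT-red and 6 lower in K504E-white relative to K504E-red, with NDT80 at -0.75 (SE 0.105) and -1.03 (SE 0.105). The count of 3 became 1 with upper quartile scaling, both other filters or limma, and without WT-red replicate 1 or 2, K504E-red replicate 3, or K504E-white replicate 1 or 2. Of the 6 lower genes, IME2 lay close to the threshold (adjusted p 0.0492 by edgeR) and was called under 4 of 18 other settings. Upper quartile scaling, both other filters and limma each gave 5 rather than 6. The 3 mating type a genes found were all lower in K504E-red relative to WT-red and all higher in the other comparisons. BAR1, a secreted protease, had -0.26 (SE 0.0558), 0.34 (SE 0.0555) in K504E-white relative to WT-red and 0.60 (SE 0.0558) between the colours. In K504E-white relative to WT-red, STE2 (adjusted p 0.0207 by edgeR) kept its call under 10 of 18 other settings. Both other filters, and omission of any K504E-white library, were among those that gave 2 higher there. Of 3 mating type alpha genes, none was called in K504E-red relative to WT-red, MF(ALPHA)1 was higher in K504E-white relative to WT-red (1.11 CPM in K504E-white and 0.277 CPM in WT-red), and 2 were lower in K504E-white relative to each of the other groups, STE3 by the most at -0.998 and -1.51. At these low counts, the 1 higher in K504E-white relative to WT-red was 0 without WT-red replicate 2 or 3 or K504E-white replicate 2, and the 2 lower were 1 without WT-red replicate 2 or 3 or K504E-white replicate 1 or 3.

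**Figure D4:**
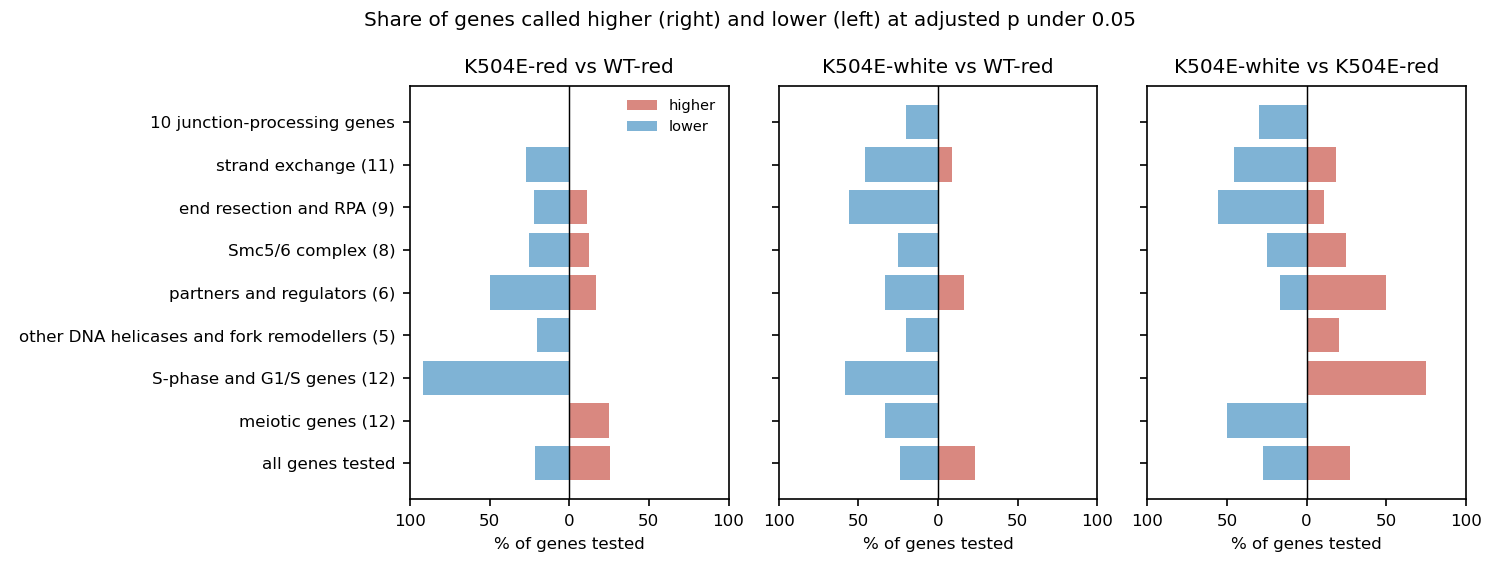
Share of the genes tested in each list that edgeR called higher (right of 0) or lower (left of 0), in % of the genes tested, with the number of genes in parentheses. The bottom bars are all genes tested. The top bars, for the 10 junction-processing genes, are empty in K504E-red relative to WT-red, where 11 of 12 S-phase and G1/S genes were lower.

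TOP3 had the widest range of group means among the 10, 0.64 on a log2 CPM scale. The genes whose log2 CPM correlated most closely with it over the 9 libraries were CRT10 (Pearson r = 0.974), RTG1 (r = 0.967) and SRX1 (r = 0.963), picked as the 3 highest of all genes tested, with no test. CRT10 averaged 55.5 CPM in K504E-white, 70.9 CPM in K504E-red and 67.1 CPM in WT-red, RTG1 averaged 31.4, 46.2 and 44.8 CPM in that order, and SRX1 averaged 8.69, 16.2 and 13.6 CPM. The points share library and depth, and groups that differ make such values high.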

How the data were processed

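Per the labels, RNA was extracted and poly(A) libraries were made by a sequencing provider. The authors deposited raw whole-number counts per gene, and they also deposited FPKM per library and group means of FPKM. Gene positions refer to W303 contigs, per the file headers. The aligner, the counting program and the use of strand are not given in the sources used here. Reads of neighbouring genes may therefore have been mixed, and no member overlaps another gene of the table. All gene lengths are multiples of 3, so they are coding lengths without UTRs. Names came from RefSeq's S288C assembly R64 by locus tag, for 5162 of 5205 genes. It is not the build of the files, so no coordinates or sequences were taken from it and the planned promoter motif search was not run.

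Counts of all 9 libraries were fitted with edgeR 4.0.16 in R 4.3.3, with filterByExpr (5172 genes retained), TMM scaling (factors 0.978 to 1.04), group as the only term and glmQLFTest, two-sided. CPM values use the scaled library sizes, and log2 CPM values add a prior count of 2. Standard errors come from the F statistic. Replicates of a group differed by more than counting noise (chi-square per degree of freedom 13.5 to 31.6). The labels call the replicates biological. The alternatives were other scalings and filters, DESeq2 1.42.0, limma 3.58.1 on log2 FPKM, 2-group fits, a replicate block, omission of single libraries and glmTreat with a minimum fold of 1.5. The edgeR fit was checked on simulated data. Partner ratios were tested with scipy 1.17.1, and matplotlib 3.10.9 drew the plots.

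The members, lists and tests were chosen with earlier results of these data known. Named genes are the 10 members, CDC13 and ADE2, from each list the called gene with the largest change in each direction, and the 3 genes most like the most variable member. STE2, IME1, SPO11, MXR1, GCV2, TIS11, YLR236C, CIN10, ROT2, GWT1, MET12, VPS15, AIM21, CDC5 and the domain counts were added after their values were seen. RAD10, MHF1, MHF2, CDC21, MFA1 and MFA2 were listed but not analysed here. The rule also selected 1 gene that is not reported here.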

Additional observations from a re-analysis of the deposited data

Results flagged for a closer look

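The mutant differed from WT-red by another amount in white than in red colonies for 3 of the 10 genes, against 54.5% of all genes. The test of that difference is K504E-white relative to K504E-red, since both share the WT-red libraries. TOP3 differed by -0.64, YEN1 by -0.32 and MPH1 by -0.19 on the log2 scale. MPH1 was not called by edgeR relative to WT-red in either colour. TOP3 and YEN1 were called under all 18 other settings apart from the test against a fold change of 1.5, and MPH1 under 15 of them. Groups of 3 libraries are too small to tell an outlying library from ordinary spread. When single libraries were left out, TOP3 and YEN1 kept their calls in K504E-white relative to K504E-red. MPH1 lost its call there without K504E-red replicate 1 or K504E-white replicate 1 or 3.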

How the results depend on the processing

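For K504E-red relative to WT-red, 0 of the 10 genes were called as reported and 1, SRS2, with DESeq2 size factors, upper quartile scaling, the filters of 1 count or of 10 counts per library, or the DESeq2 Wald test. Leaving out single libraries gave 0 to 1, with SRS2 called without WT-red replicate 1 or any K504E-white replicate. For K504E-white relative to WT-red the 2 calls became 3 with upper quartile scaling, where MPH1 joined, and 4 under both other filters, where MPH1 and MUS81 joined. They became 1 to 4 when single libraries were left out (1 without WT-red replicate 2, 4 without K504E-red replicate 2 or 3). For K504E-white relative to K504E-red the 3 calls became 2 to 3. The test against a fold change of 1.5 called 0 of the 10 in every comparison, as it asks for evidence that a change exceeds that fold. Over all genes it called 49 rather than 2455, 241 rather than 2422 and 369 rather than 2820 in the same order. The direction of the calls over all genes also moved with the filter. In K504E-red relative to WT-red 54.3% of the called genes were higher as reported, and 45.8% with the filter of 1 count. In K504E-white relative to WT-red these shares were 49.8% and 41.7%. Signs turned only where the fold change was not called. SLX4 in K504E-white relative to WT-red had 0.0024 as reported, -0.016 with upper quartile scaling, -0.0320 and -0.0317 with the other filters, and -0.0999 to 0.0887 without single libraries. The median over all genes there was -0.00716 as reported, -0.0266 with upper quartile scaling, and -0.0421 and -0.0419 with the other filters. Leaving out single libraries gave RMI1 -0.0478 to 0.204, TOP3 -0.0395 to 0.141 and YEN1 -0.0167 to 0.110 in K504E-red relative to WT-red. It gave RMI1 -0.231 to 0.0184 and SLX1 -0.0713 to 0.0992 in K504E-white relative to WT-red, and SGS1 -0.208 to 0.0124 in K504E-white relative to K504E-red. The cause was not tested. Replicate numbers did not pair the libraries (correlation of deviations -0.11 to 0.027, and 0 of 9 libraries correlated best with their own number), and the replicate block left 0, 2 and 3 genes called in the order of comparisons above. With a pseudocount of 1 or without single libraries, each difference in a partner ratio came within 1 SD of its reported value, and that of SLX1 over SLX4 in K504E-white relative to WT-red ran from -0.112 to 0.144.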

Other observations

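The deposited domain annotation was examined after the results were seen. SGS1 and MPH1 are among 52 genes with a helicase C-terminal domain. By edgeR 20 of these were lower and 5 higher in K504E-red relative to WT-red, where 21.7% of all genes were lower and 25.8% higher. In K504E-white relative to WT-red 14 were lower and 5 higher (all genes, 23.5% and 23.3%), and in K504E-white relative to K504E-red 12 were lower and 21 higher (all genes, 27.3% and 27.2%). YEN1 shares the XPG I-region with EXO1, RAD2, RAD27 and DIN7. MUS81 shares the ERCC4 domain with RAD1, SRS2 shares the UvrD/REP domain with HMI1, and SLX1 is the single gene with a GIY-YIG domain.

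The nearest genes to SGS1 and SLX4 were higher by edgeR in K504E-white relative to both other groups, where SGS1 and SLX4 were not called; these differences were not tested against each other. GCV2, 310 bp from SGS1, averaged 200.1 CPM in K504E-white, 91.2 CPM in K504E-red and 58.9 CPM in WT-red. TIS11, 273 bp from SLX4, averaged 9.98, 3.99 and 4.38 CPM in the same order. In K504E-white relative to K504E-red edgeR also called the genes nearest to MUS81 (CIN10, -0.43), SLX1 (ROT2, -0.18), SRS2 (GWT1, 0.31) and YEN1 (MXR1, given above). ROT2 was called there under 13 of 18 other settings. The genes nearest to RMI1 (MET12, -0.02), MMS4 (VPS15, -0.07) and MPH1 (AIM21, -0.12) were not called in that comparison. Over all genes, 54.5% were called in it, in either direction. YLR236C, 40 bp from TOP3 on the opposite strand, averaged 1.90, 2.69 and 2.64 CPM, and edgeR did not call it in any comparison. At these low counts, its K504E-white libraries lay entirely below those of each red group. Over all genes, the libraries were fully separate for 56.1% between K504E-white and WT-red and for 61.9% between K504E-white and K504E-red. The fitted differences of YLR236C were -0.48 on the log2 scale against WT-red (SE 0.278) and -0.50 against K504E-red (SE 0.279). Whether YLR236C and TOP3 changed together was not tested.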
